A study of Mus musculus with 14 samples.

Results

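The 40 genes described here encode proteins that carry a cell through mitosis and cytokinesis. They were taken by gene symbol from a read count table of 24015 gene rows covering cultured mouse pluripotent cells, and all 40 were present. By role they comprise 6 mitotic cyclins, Cdk1 and Cdc25 phosphatases, 5 polo, aurora and Nek kinases, 3 chromosomal passenger subunits, 5 spindle checkpoint genes and 5 kinetochore and centromere genes. The others are 4 spindle motors and microtubule proteins, 5 cytokinesis genes, 2 genes of mitotic chromosome structure, and 5 genes of anaphase and the anaphase-promoting complex (APC/C).

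RNA was profiled by single-end sequencing of Illumina TruSeq libraries in 7 groups of 2 biological duplicates, 14 libraries in all, to compare embryonic stem cells, epiblast stem cells and cells reverted from the second towards the first with MM401, which blocks Mll1, an enzyme that methylates histones. Epiblast stem cells (EpiSC, genotype CD1/JF1, a primed pluripotent state) grew in a bFGF medium. MM401 day 3 and MM401 P2 were EpiSC of that genotype given 100 µM MM401 in LIF medium for 3 days or for 6 days, which is passage 2. Reverted cells (rES, genotype CD1-deltaTSIX/JF1) were profiled at passage 6, at passage 30 and at passage 30 without MM401, in LIF medium. The labels give 25 µM MM401 for rES lines kept beyond passage 3. Embryonic stem cells (ESC, genotype CD1/JF1, a naive pluripotent state) grew with LIF on feeder cells. LIF medium and MM401 started together in the treated EpiSC, so their parts cannot be told apart. The rES groups carry the deltaTSIX allele and no other group does, so genotype and reversion cannot be told apart either. The labels do not say whether the duplicates came from separate cultures, so p-values measure the spread between these samples, which may be technical.

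Entry into mitosis is driven by Cdk1 bound to cyclin B after Cdc25 phosphatases activate it, and polo and aurora kinases then build the spindle. The spindle checkpoint holds back the APC/C until every kinetochore is attached, after which the APC/C with Cdc20 and later with Fzr1 marks cyclins and securin for destruction. Most of these transcripts build up in G2 and mitosis under the MuvB complexes with B-Myb and FoxM1, which act at a promoter element called the cell cycle genes homology region (CHR), often beside CCAAT boxes. Pluripotent cells are known for fast division with short gap phases, and in bulk RNA a smaller share of cells in mitosis and less of a transcript per cell cannot be told apart.

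Promoter stretches of 10 of the genes are shown, some with the elements above and some without. These genes were picked because they lead the differences described below or stand apart from them. Each line runs 5′ to 3′ on the gene's strand from 120 bases before to 30 bases after the RefSeq start, on build GRCm38.p6. Capitals mark CHR matches (TTTGAA or TTCGAA) and CCAAT matches, each in either orientation (TTCAAA and ATTGG on the other strand). The first 6 carry a CHR match in the stretch.
Cdk1 (chr10:69352883-69353032, minus strand): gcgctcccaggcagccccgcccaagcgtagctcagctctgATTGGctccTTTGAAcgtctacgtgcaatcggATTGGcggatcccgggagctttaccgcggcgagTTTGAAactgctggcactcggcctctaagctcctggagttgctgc
Ccnb2 (chr9:70421525-70421674, minus strand): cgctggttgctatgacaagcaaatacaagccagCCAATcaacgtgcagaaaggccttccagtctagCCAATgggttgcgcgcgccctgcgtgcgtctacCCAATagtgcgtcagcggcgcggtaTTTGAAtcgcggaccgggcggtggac
Cdc20 (chr4:118437314-118437463, minus strand): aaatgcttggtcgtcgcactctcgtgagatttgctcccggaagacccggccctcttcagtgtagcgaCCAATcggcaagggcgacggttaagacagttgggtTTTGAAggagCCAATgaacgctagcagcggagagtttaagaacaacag
Top2a (chr11:99024160-99024309, minus strand): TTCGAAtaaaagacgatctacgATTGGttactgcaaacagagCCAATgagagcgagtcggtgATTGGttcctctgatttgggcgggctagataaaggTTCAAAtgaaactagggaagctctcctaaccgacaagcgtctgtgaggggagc
Kif23 (chr9:61946770-61946919, minus strand): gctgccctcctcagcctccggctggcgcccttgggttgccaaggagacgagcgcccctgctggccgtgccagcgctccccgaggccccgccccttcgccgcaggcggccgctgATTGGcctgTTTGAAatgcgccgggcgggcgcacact
Kif4 (chrX:100625945-100626094, plus strand): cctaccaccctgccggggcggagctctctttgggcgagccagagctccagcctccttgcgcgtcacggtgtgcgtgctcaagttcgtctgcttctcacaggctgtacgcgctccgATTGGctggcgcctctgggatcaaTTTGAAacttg
The other 4 carry none, and of them Fzr1 alone has a CCAAT match in the stretch.
Mad2l1 (chr6:66535101-66535250, plus strand): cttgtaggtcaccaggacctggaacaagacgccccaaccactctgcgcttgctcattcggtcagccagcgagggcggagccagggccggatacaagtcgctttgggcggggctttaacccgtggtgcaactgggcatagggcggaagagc
Birc5 (chr11:117849117-117849266, plus strand): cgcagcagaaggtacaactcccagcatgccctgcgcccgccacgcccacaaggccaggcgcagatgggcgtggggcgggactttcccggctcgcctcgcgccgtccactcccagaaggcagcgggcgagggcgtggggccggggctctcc
Plk4 (chr3:40799831-40799980, plus strand): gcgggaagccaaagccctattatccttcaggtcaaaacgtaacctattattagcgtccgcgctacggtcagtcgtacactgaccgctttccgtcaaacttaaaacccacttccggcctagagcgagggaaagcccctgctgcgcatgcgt
Fzr1 (chr10:81378341-81378490, minus strand): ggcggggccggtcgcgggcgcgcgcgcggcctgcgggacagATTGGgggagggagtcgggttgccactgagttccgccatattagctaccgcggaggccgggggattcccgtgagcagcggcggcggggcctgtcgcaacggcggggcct

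Over windows from 250 bases before to 50 bases after the start, RefSeq promoters were found for 34 of the 40 genes. A CHR match lay in 25 of these 34, or 73.5%, against 19.4% of 27025 RefSeq promoters of the same length. In the narrower window from 60 bases before to 30 bases after the start, a CHR match lay in 18 of 34 (52.9%), against 4.90% of all promoters. A CCAAT match lay in 26 of 34 (76.5%) against 37.9%, and 2 or more such matches in 17 of 34 (50%) against 12.2%. The E2F motif GGCGGGAA, searched on both strands, was found in 0 of 34 and in 2.24% of all promoters. These matches describe letters only. The 9 genes whose window held no CHR match were Nuf2, Nek2, Plk4, Cenpe, Mad2l1, Fzr1, Pttg1, Birc5 and Ccnb1.

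Library depth ran from 20831588 to 23677089 counts in 10 libraries, and from 74952496 to 116086115 in the 4 libraries of EpiSC given MM401. The lowest count of any of the 40 genes in any library was 364, so all 40 passed the filter on low counts, as did 16247 genes in all. As a check of the labels, the 10 naive markers were each higher in ESC than in EpiSC, with a median log2 difference of 3.62. Of 10 primed markers 5 were lower and 4 higher in ESC, where 37.5% and 37% of all tested genes were. With counts this near those of all genes, the primed markers are a weak check of the labels. The 3 shared markers were higher in ESC (median 0.69). Markers of feeder fibroblasts, 20 genes of which none was at 0 in any library, summed to 5997 and 6046 CPM (counts relative to the library total) in EpiSC, 6165 and 6256 at MM401 day 3, 18571 and 18397 at MM401 P2, 3447 and 3490 in rES passage 6, 1542 to 1627 in the 4 rES passage 30 libraries, and 5217 and 5232 in ESC. The part of these cells in the values below was not tested. Rn45s, the ribosomal RNA precursor, took 0.435% and 0.350% of the counts in EpiSC, 1.90% and 1.68% at MM401 day 3, 1.39% and 1.55% at MM401 P2, and 0.548% and 2.00% in the rES passage 30 libraries, against 0.391% to 0.911% in the other 6; its part was not tested either.

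All 40 genes differed among the 7 groups by edgeR's quasi-likelihood test with Benjamini-Hochberg adjustment over all genes tested (called under 0.05), where 97.6% of all tested genes did. The largest of the 40 adjusted p-values was 1.29e-11. ESC held the lowest group mean for 28 of the 40 genes, MM401 P2 for 9, EpiSC for 2 and MM401 day 3 for 1. The highest mean was in rES passage 30 without MM401 for 16, MM401 day 3 for 12, EpiSC for 6, rES passage 30 for 4 and rES passage 6 for 2. Shares over all tested genes are not given for these ranks or for the ratios that follow. The ratio of the highest to the lowest group mean had a median of 1.95 and exceeded 2 for 18 genes. It reached 4.64 for Kif23, 3.70 for Kif4, 3.61 for Cdc25b and 2.94 for Aurkb, and was smallest for Cdc20 at 1.34, Espl1 at 1.38 and Bub3 at 1.39. Within a group the 2 libraries differed by at most 1.16-fold (Nuf2). With duplicates this close, 24 to 39 of the 40 genes had groups that did not overlap in each comparison below, called or not. An absence of overlap therefore adds little to a call, and its share over all tested genes is not given here.

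**Figure D1:**
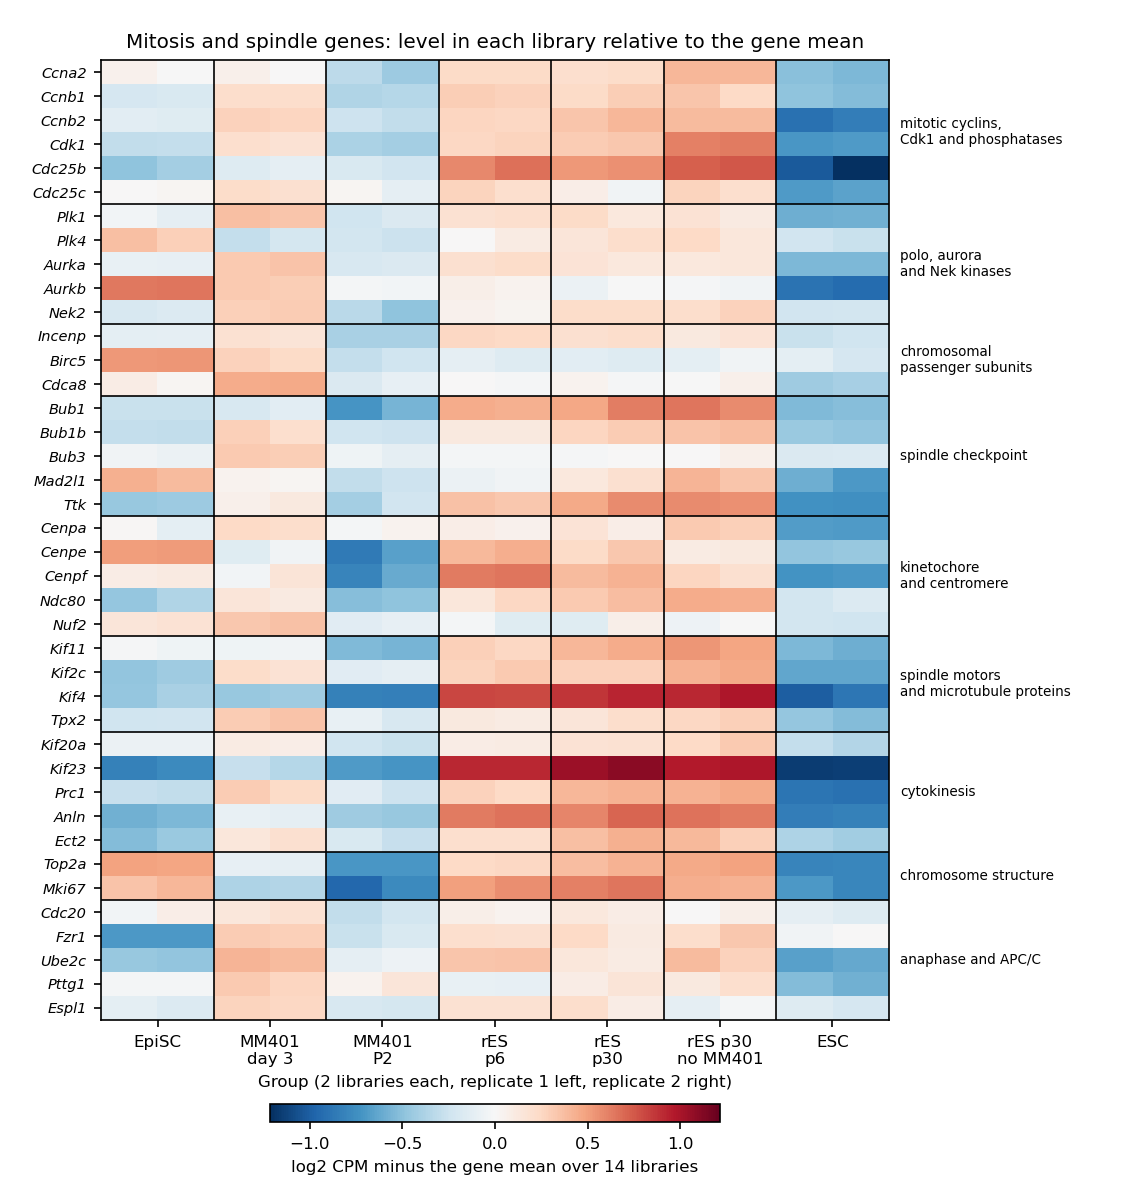
Level of each of the 40 genes (rows, by role) in each of the 14 libraries (columns, 2 a group) as log2 CPM minus the gene's mean over the libraries; red is above and blue below that mean. ESC is blue in nearly every row, the rES groups are mostly red, and Aurkb and Birc5 are reddest in EpiSC.

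A fixed panel of genes, given here in CPM scaled by the trimmed mean of M-values (TMM), shows the range of patterns. Cdk1, the kinase that starts mitosis, was at 222 and 223 CPM in EpiSC, 314 and 308 at MM401 day 3, 209 and 205 at MM401 P2, 325 and 329 in rES passage 6, 339 and 341 in rES passage 30, 417 and 422 in rES passage 30 without MM401 and 167 and 169 in ESC. Ccnb1, its cyclin partner, was at 82.6 and 83.8 CPM in EpiSC, 109.9 and 110.2 at MM401 day 3, 73.9 and 74.8 at MM401 P2, 117 and 115 in rES passage 6, 112 and 117 in rES passage 30, 120.1 and 112 in rES passage 30 without MM401 and 67.6 and 65.9 in ESC. Both genes were lowest in ESC, next lowest at MM401 P2 and in EpiSC, and higher at day 3 and in every rES library, with no overlap between those 2 sets of libraries. Plk1, the polo kinase of mitotic entry and spindle assembly, was at 192 and 181 CPM in EpiSC, 252 and 247 at MM401 day 3, 166 and 173 at MM401 P2, 222 and 225 in rES passage 6, 229 and 214 in rES passage 30, 221 and 211 in rES passage 30 without MM401 and 129 and 131 in ESC. Aurka, the centrosomal aurora kinase, was at 158 and 157 CPM in EpiSC, 210.1 and 214 at MM401 day 3, 147 and 149 at MM401 P2, 193 and 197 in rES passage 6, 189 and 184 in rES passage 30, 184 and 185 in rES passage 30 without MM401 and 115 and 116 in ESC. These kinases were highest at day 3, and the 2 ESC libraries were the lowest.

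The checkpoint and APC/C genes of the panel varied less or differently. Bub3, which brings the checkpoint kinases to kinetochores, was at 165 and 162 CPM in EpiSC, 212 and 209 at MM401 day 3, 164 and 158 at MM401 P2, 168 and 167 in rES passage 6, 169 and 171 in rES passage 30, 171 and 177 in rES passage 30 without MM401 and 151 and 151 in ESC. It stood out at day 3 only: the other 12 libraries lay between 151.3 and 177 CPM. Cdc20, the mitotic activator of the APC/C, was at 265 and 287 CPM in EpiSC, 299 and 307 at MM401 day 3, 220.0 and 232 at MM401 P2, 285 and 279 in rES passage 6, 297 and 289 in rES passage 30, 272 and 284 in rES passage 30 without MM401 and 251 and 244 in ESC. Its lowest libraries were those of MM401 P2. Fzr1, the activator that takes over at mitotic exit and in G1, was at 114 and 114 CPM in EpiSC, 229.9 and 226 at MM401 day 3, 153 and 163 at MM401 P2, 214 and 212 in rES passage 6, 219 and 200.4 in rES passage 30, 215 and 232 in rES passage 30 without MM401 and 180.3 and 186 in ESC. EpiSC held the lowest Fzr1 level, below all 12 other libraries, in contrast to most of the other genes.

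The genes of chromosome structure had a pattern of their own. Top2a, which untangles sister chromatids, was at 1281 and 1278 CPM in EpiSC, 857 and 851 at MM401 day 3, 563 and 562 at MM401 P2, 1083 and 1093 in rES passage 6, 1185 and 1225 in rES passage 30, 1264 and 1283 in rES passage 30 without MM401 and 526 and 529.6 in ESC. Mki67, which coats mitotic chromosomes and is used as a proliferation marker, was at 435 and 453 CPM in EpiSC, 263 and 268 at MM401 day 3, 177 and 200.2 at MM401 P2, 483 and 506 in rES passage 6, 521 and 537 in rES passage 30, 464 and 459 in rES passage 30 without MM401 and 212 and 197 in ESC. Both were high in EpiSC and rES and low at day 3, at P2 and in ESC, and the 2 sets of libraries did not overlap.

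**Figure D2:**
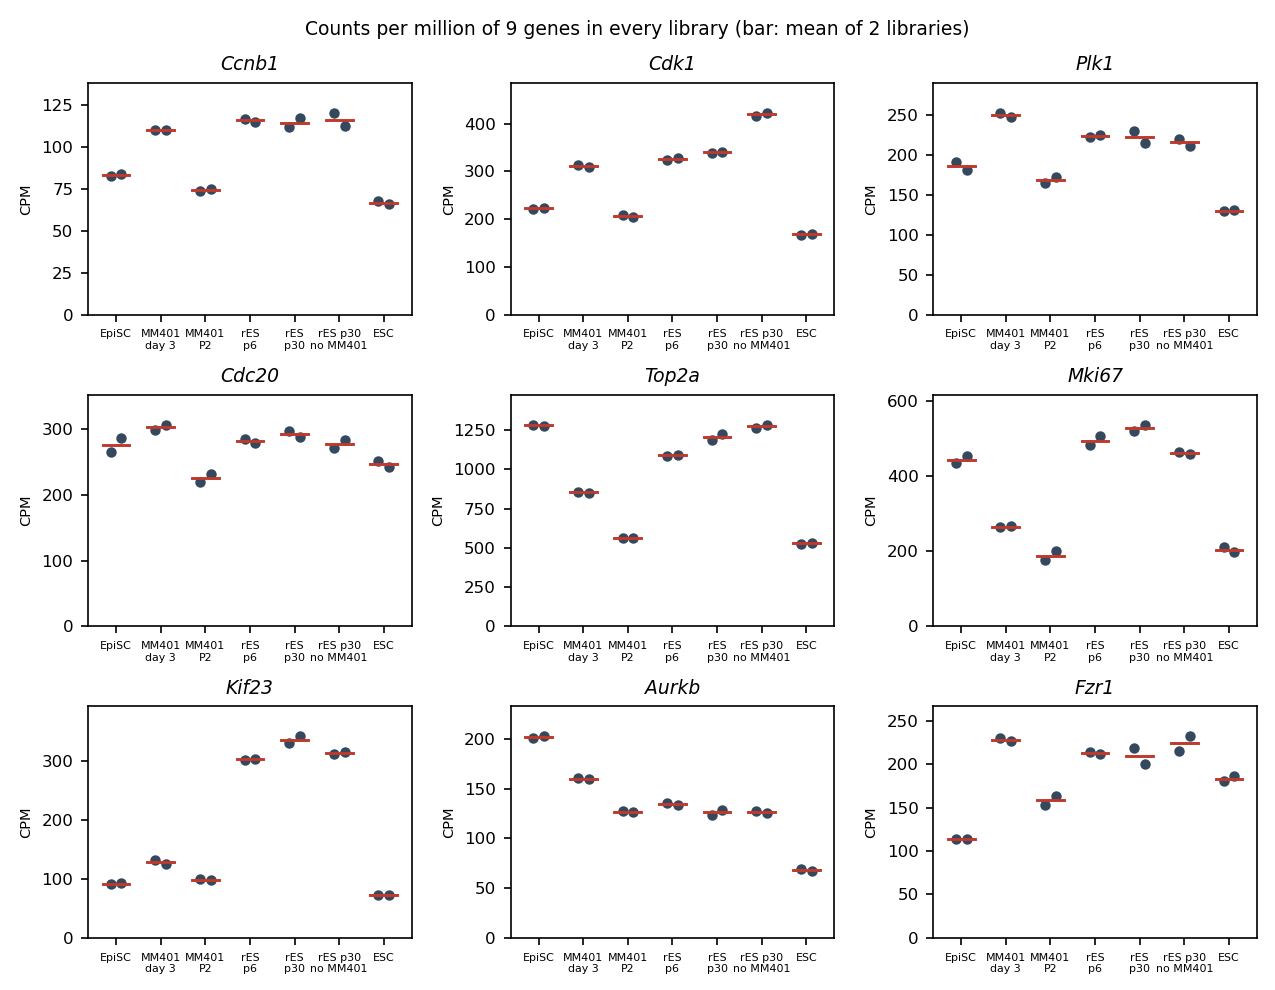
TMM-scaled CPM (vertical axis) of 9 of the genes in each library, with groups on the horizontal axis, points for libraries and a bar for the mean of 2. Cdk1 and Ccnb1 are lowest in ESC, Fzr1 is lowest in EpiSC, Top2a and Mki67 are high in EpiSC and rES, Kif23 is high in rES, and Aurkb is highest in EpiSC.

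ESC held less of most mitotic transcripts than EpiSC: 35 of the 40 genes were lower in ESC, where 37.5% of all tested genes were, and 2 were higher, where 37% were. The median log2 difference (ESC minus EpiSC) over the 40 was -0.43, against 0.00 over all tested genes. Most of these differences were modest, with 12 genes at least 1.5-fold lower (22.1% of all tested genes were) and 4 at least 2-fold lower (13.5%). The 4 were Aurkb, Top2a, Mki67 and Mad2l1. Aurkb, the catalytic subunit of the chromosomal passenger complex, stood at 201 and 203 CPM in the EpiSC libraries and 69.4 and 67.6 in ESC, a log2 difference of -1.56 ± 0.043 (SE, n = 2 a group, adjusted p = 1.36e-29 by edgeR's quasi-likelihood test). Top2a fell by 1.28 and Mki67 by 1.12 on the log2 scale (adjusted p = 8.89e-31 and 1.05e-21). Mad2l1, the checkpoint protein that binds Cdc20, stood at 166 and 161 CPM in EpiSC and 81.6 and 76.1 in ESC (-1.05 ± 0.045, adjusted p = 5.82e-23). In none of these 4 genes did the groups overlap.

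Every role took part in the lower levels of ESC. All 6 cyclin, Cdk1 and Cdc25 genes were lower, with log2 differences from -0.74 (Ccnb2) to -0.32 (Ccnb1), as were all 5 checkpoint genes, all 3 passenger subunits and all 4 spindle motors and microtubule proteins. Of the kinetochore and centromere genes 4 were lower, Cenpe the most at -0.98 ± 0.052, and Ndc80, a microtubule-binding kinetochore subunit, was higher. Ndc80 was at 34.0 and 36.6 CPM in EpiSC and 40.4 and 41.8 in ESC (0.22 ± 0.063, adjusted p = 0.00211), and the groups did not overlap. Fzr1 was the other gene higher in ESC (0.68 ± 0.045, adjusted p = 6.9e-17). Nek2, Ect2 and Espl1 were not called, at -0.04, 0.09 and -0.03. Scaling to total counts took the higher count from 2 to 1, and Ndc80 was no longer called there or without EpiSC replicate 1, which also left 1 higher.

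By 3 days of MM401 in LIF medium most of the mitotic genes had risen above EpiSC. At day 3, 29 of the 40 were higher (38.7% of all tested genes were) and 7 lower (37.9%), with a median log2 difference of 0.34 against 0.00 over all tested genes. Fzr1 rose the most, 1.99-fold (1.00 ± 0.043, adjusted p = 4.87e-23). Ube2c, the E2 enzyme that serves the APC/C, was at 170.0 and 168 CPM in EpiSC and 309.8 and 305 at day 3 (0.86 ± 0.037, adjusted p = 5.62e-23). Each of the 5 anaphase and APC/C genes and each of the 5 cytokinesis genes was higher, the latter by 0.16 (Kif20a) to 0.66 (Ect2), although Cdc20 and Kif20a lay at -0.04 and -0.02 with scaling to total counts. Cdk1 rose by 0.48 ± 0.034, Ccnb1 by 0.40 ± 0.043, Plk1 by 0.42 ± 0.039 and Aurka by 0.43 ± 0.036 on the log2 scale.

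The 7 genes lower at day 3 were Mki67, Cenpe, Top2a, Plk4, Mad2l1, Aurkb and Birc5. Mki67 had the largest of these differences (-0.74 ± 0.042, adjusted p = 2.79e-17), and Top2a fell by 0.58 on the log2 scale. Cenpe, the kinetochore motor that moves chromosomes to the spindle equator, stood at 178 and 179 CPM in EpiSC and 113 and 122 at day 3 (-0.61 ± 0.047). Plk4, the kinase that starts centriole duplication, stood at 62.2 and 58.9 CPM in EpiSC and 39.5 and 41.7 at day 3 (-0.58 ± 0.054). Neither gene's groups overlapped. Mad2l1 was at 166 and 161 CPM in EpiSC and 127 and 126 at day 3 (-0.37 ± 0.040). The passenger kinase Aurkb was at 201 and 203 CPM in EpiSC and 161 and 159 at day 3 (-0.33 ± 0.037), and its partner Birc5 (survivin) at 186 and 188 against 157 and 152 CPM (-0.28 ± 0.040). In these 3 genes too both day 3 libraries lay below both EpiSC libraries, while the other passenger subunits, Incenp and Cdca8, rose by 0.29 ± 0.034 and 0.40 ± 0.038. All 7 remained lower under each alternative scaling.

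The size of the day 3 rise depended on the scaling between libraries, and the day 3 libraries also held more Rn45s than EpiSC (above). In raw terms the 40 genes summed to 8319 and 8322 CPM in EpiSC and to 8091 and 8136 at day 3. Top2a and Mki67, the most abundant of the 40 in EpiSC and both lower at day 3, weigh most in that sum. It therefore does not describe most of the genes. Scaling to total counts moved the median of all tested genes to -0.17 and that of the 40 to 0.17. It left 24 genes higher and 11 lower, and Bub1 then lay at -0.07. Tested genes with a longest coding transcript of at least 6000 bases had a median of -0.27 at day 3 against 0.05 for shorter ones. Of the 5 such genes among the 40, Mki67, Cenpe and Mad2l1 were lower, Espl1 was higher and Cenpf was not called; the part of transcript length was not tested.

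At MM401 P2, after 6 days, the genes lay on both sides of EpiSC: 23 were lower (33.8% of all tested genes were) and 11 higher (42.1%), with a median of -0.14 against 0.08 over all tested genes. The 3 genes at least 2-fold lower (11% of all tested genes were) were Cenpe, Mki67 and Top2a. Cenpe was at 69.1 and 79.4 CPM against 178 and 179 in EpiSC (-1.26 ± 0.049, adjusted p = 6.31e-23), and Mki67 and Top2a changed by -1.24 ± 0.043 and -1.19 ± 0.032. These 3 genes were lower in both P2 libraries than in any EpiSC library. All 3 passenger subunits and all 5 polo, aurora and Nek kinases were lower, with log2 differences from -0.80 (Birc5) to -0.09 (Aurka).

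The 11 genes higher at P2 were Fzr1, Ube2c, Kif2c, Ect2, Cdc25b, Ttk, Anln, Pttg1, Kif23, Prc1 and Tpx2, and most of these rises were small. Fzr1, whose library values are given with the panel, rose by 0.47 ± 0.043 on the log2 scale. Ube2c was at 170.0 and 168 CPM in EpiSC and 217 and 224 at P2 (0.38 ± 0.038). Kif2c, a kinesin that takes microtubules apart at kinetochores, was at 110.4 and 114 against 139.9 and 143 CPM (0.33 ± 0.039). In all 3 both P2 libraries lay above both EpiSC libraries. Ect2, the activator of RhoA in cytokinesis, was at 164 and 174 CPM in EpiSC and 208 and 195 at P2 (0.25 ± 0.041). Cdc25b was at 41.9 and 44.3 against 51.6 and 49.9 CPM (0.24 ± 0.055). The remaining 6 lay closer to EpiSC, given first in each pair. The checkpoint kinase Ttk was at 65.7 and 66.5 CPM in EpiSC and 68.0 and 77.2 at P2, and Pttg1 (securin) at 115 and 116 against 121 and 129.9. Of the cytokinesis genes, Anln was at 160.1 and 164 against 178 and 174, Kif23 at 90.4 and 93.5 against 99.4 and 97.6, and Prc1 at 139 and 138 against 154 and 143. Tpx2, a spindle assembly factor, was at 265 and 265 against 293 and 273. In none of the 11 did the groups overlap, though for Ttk, Tpx2, Prc1 and Kif23 the nearest libraries were close. The same held for 37 of all 40 genes, including some not called. For Ttk, Anln, Pttg1, Kif23, Prc1 and Tpx2 the differences ran from 0.09 to 0.14, and none of these 6 was called with RLE size factors, with DESeq2 or in a fit of the 4 libraries compared, each of which left 5 genes higher. Scaling to total counts left 4 higher and put all 6 below EpiSC, and without EpiSC replicate 1 there were 6 higher.

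Between day 3 and P2 of the same treatment nearly all of these genes fell. At P2, 38 of the 40 genes were lower than at day 3, where 33.3% of all tested genes were lower, with a median log2 difference of -0.47 against 0.04 over all tested genes. By edgeR 0 were higher, where 37.5% of all tested genes were; 0 were higher at an unadjusted p under 0.05, and 0 by DESeq2. Cenpf, a kinetochore protein, fell from 239 and 272 CPM to 140.3 and 159.8 (-0.77 ± 0.053, adjusted p = 6.61e-11). Nek2, a centrosome-splitting kinase, fell from 142 and 144 to 92.5 and 83.1 CPM (-0.71 ± 0.041, adjusted p = 2.12e-18). Cenpe, from 113 and 122 to 69.1 and 79.4 CPM, fell by 0.66 on the log2 scale. In all 3 genes both P2 libraries lay below both day 3 libraries.

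The falls were similar in size across the roles, with medians from -0.63 for kinetochore and centromere genes to -0.39 for cytokinesis genes. At least 1.5-fold lower were 7 of the 40, against 7.96% of all tested genes. Plk4 (0.01 ± 0.050) and Cdc25b (-0.08 ± 0.048) were the genes not called. Cdk1 fell by 0.59, Ccnb1 by 0.57, Plk1 by 0.56 and Aurka by 0.52 on the log2 scale. The count of lower genes was 38 or 39 under every alternative run. The feeder markers moved the other way: all 20 were higher at P2 than at day 3, by a median of 1.63, and their part in the fall of the mitotic genes was not tested. Rn45s shares at the 2 times are given above.

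**Figure D3:**
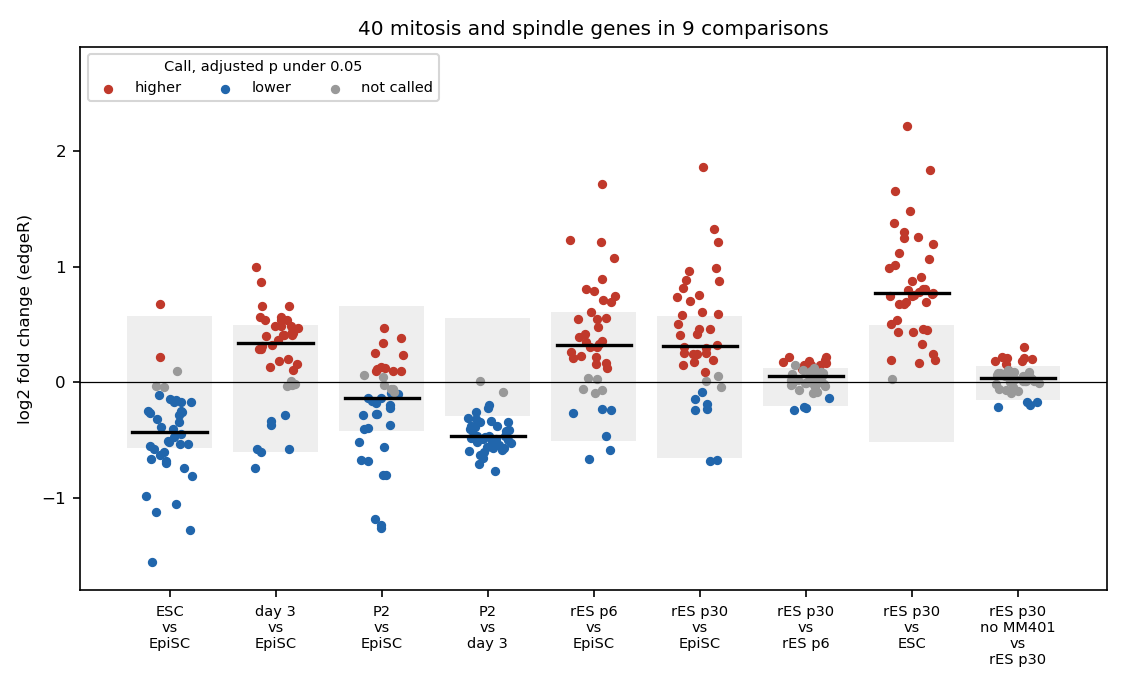
Log2 difference (vertical axis) of each of the 40 genes (points) in the 9 comparisons on the horizontal axis, red where called higher, blue where called lower and grey where not called; the black bar is the median of the 40, and the grey box spans the lower to the upper quartile of all 16247 tested genes. MM401 P2 against day 3 lies almost wholly below 0 and rES passage 30 against ESC almost wholly above it, while the comparisons among the rES groups lie near 0.

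In established rES most of the mitotic genes stood above EpiSC. At passage 30, 30 of the 40 were higher (38% of all tested genes were) and 7 lower (38.3%), with a median of 0.31 against -0.02 over all tested genes. At passage 6, 29 were higher (38.7%) and 6 lower (35.1%), with a median of 0.32 against 0.04. Both comparisons share the EpiSC libraries. The cytokinesis genes had the highest median of any role at passage 30, 0.89, with 5 of 5 higher, and the motors and microtubule proteins followed with 4 of 4 higher and 0.60.

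Kif23, the motor subunit of centralspindlin at the midbody, had the largest difference: it stood at 90.4 and 93.5 CPM in EpiSC, 301 and 302 in rES passage 6 and 329 and 341 in rES passage 30, a log2 difference of 1.87 ± 0.040 at passage 30 (adjusted p = 1.94e-33). Kif4, the chromokinesin of the central spindle, stood at 79.2 and 83.4 CPM in EpiSC, 191 and 191 at passage 6 and 199.7 and 207 at passage 30 (1.32 ± 0.045, adjusted p = 1.3e-26). Anln, the anillin scaffold of the contractile ring, stood at 160.1 and 164 CPM in EpiSC, 372 and 379 at passage 6 and 362 and 390.4 at passage 30 (1.21 ± 0.038, adjusted p = 1e-27). No rES library overlapped EpiSC in these 3 genes, which were the only ones at least 2-fold higher at passage 30, where 15.4% of all tested genes were. At passage 6 there were 4 (15.4% of all tested genes there), Cdc25b being the fourth: 41.9 and 44.3 CPM in EpiSC and 87.9 and 93.5 at passage 6 (1.08 ± 0.056). Kif4 is the only one of the 40 genes on the X chromosome, where 566 tested genes had a median of 0.38 in rES passage 30 against EpiSC, 308 higher and 147 lower; its part in the Kif4 value was not tested.

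The other roles were mixed at passage 30. Of the 5 checkpoint genes 3 were higher, Ttk, the kinase at the top of the checkpoint, by 0.96 ± 0.053, Bub1 by 0.81 ± 0.047 and Bub1b by 0.58 ± 0.037 on the log2 scale, while Mad2l1 was lower. Of the 6 cyclin, Cdk1 and Cdc25 genes 5 were higher, among them Cdk1 by 0.61 ± 0.035 and Ccnb1 by 0.46 ± 0.046. Fzr1, the APC/C activator, rose by 0.88 ± 0.045 and Ect2, of the cytokinesis genes, by 0.89 ± 0.042. Bub3 (0.05 ± 0.039), Cdca8 (-0.04 ± 0.041) and Cdc25c (0.01 ± 0.075) were not called. The 7 genes lower at passage 30 were Aurkb, Birc5, Mad2l1, Cenpe, Nuf2, Plk4 and Top2a. Aurkb was at 123 and 129 CPM against 201 and 203 in EpiSC (-0.68 ± 0.040, adjusted p = 1.67e-18) and Birc5 at 119 and 116 against 186 and 188 (-0.67 ± 0.043, adjusted p = 1.74e-17), with no overlap. Mad2l1 was at 135 and 141 CPM against 166 and 161 (-0.24 ± 0.043), and Cenpe at 147 and 157 against 178 and 179 (-0.23 ± 0.050). These 4 genes were the lowest beside EpiSC. Nuf2, the kinetochore partner of Ndc80, was at 45.8 and 53.3 against 55.9 and 57.0 (-0.19 ± 0.062), and Plk4 at 53.6 and 56.1 against 62.2 and 58.9 (-0.14 ± 0.058). Top2a, in the panel, changed by -0.09 ± 0.032. In none of the 7 did the groups overlap, as in 38 of all 40 genes. The 2 passage 30 libraries differed in their Rn45s share (above). Without rES passage 30 replicate 1 the lower genes numbered 4, and Plk4, Nuf2 and Top2a were no longer called. At passage 6 the 6 lower genes were Birc5 (120.2 and 116 CPM, log2 difference -0.66), Aurkb (136 and 133, -0.58), Mad2l1 (118 and 119, -0.47), Plk4 (48.7 and 51.9, -0.27), Nuf2 (49.9 and 45.6, -0.24) and Top2a (-0.23), all without overlap with EpiSC. Scaling to total counts gave 24 higher and 11 lower at passage 6.

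Set against the wider promoter windows described above, and not only the stretches shown, the counts in rES divide as follows by CHR match. Of the 25 genes with a match, 22 were higher in rES passage 30 than in EpiSC and 1, Top2a, was lower, with a median of 0.58. Of the 9 without a match, 4 were higher and 5 lower, with a median of -0.14. Of all tested genes, 38% were higher and 38.3% lower in this comparison. The 6 genes with no promoter entry, Aurkb, Cdc25c, Kif20a, Ccna2, Incenp and Tpx2, had 4 higher and 1 lower. This division was made after the values were seen, so it carries no test. In rES passage 6 against EpiSC the medians were 0.54 with a match and -0.09 without, and at MM401 day 3 against EpiSC 0.41 and 0.18, all of which share the EpiSC libraries. In ESC against EpiSC 22 of 25 with a match and 7 of 9 without were lower (37.5% of all tested genes were), with medians of -0.40 and -0.53. At MM401 P2 against day 3, 24 of 25 and 8 of 9 were lower (33.3% of all tested genes were). In rES passage 30 against ESC, 25 of 25 and 8 of 9 were higher (35.3% of all tested genes were), with medians of 0.99 and 0.45.

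**Figure D4:**
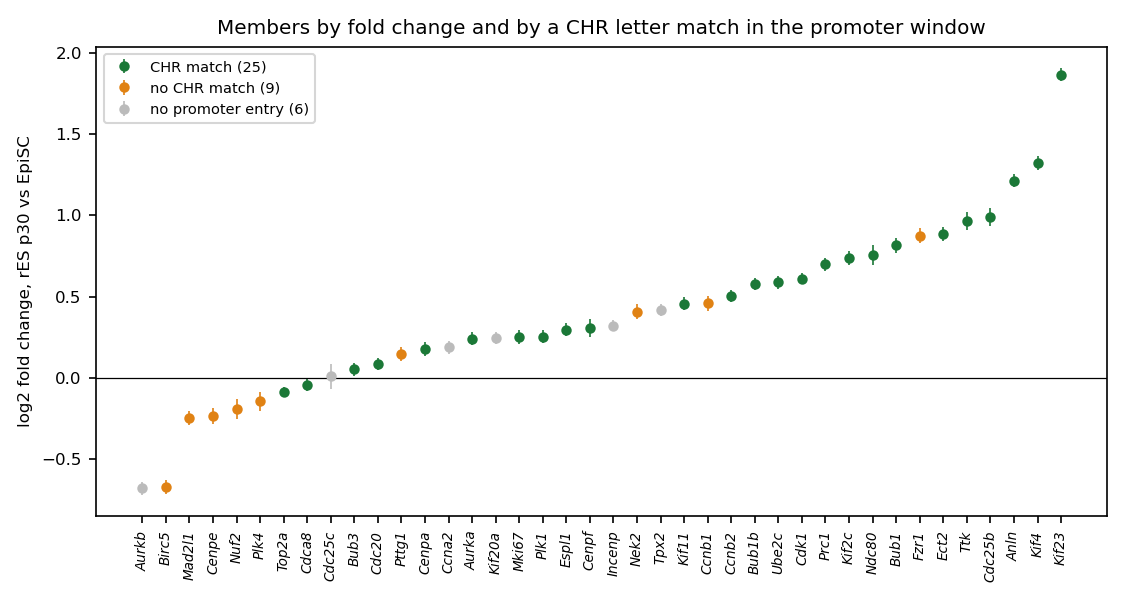
Log2 difference of the 40 genes in rES passage 30 against EpiSC (vertical axis, bars ± 1 SE), ordered along the horizontal axis from lowest to highest and coloured by promoter: 25 genes with a CHR match in green, 9 without in orange and 6 with no promoter entry in grey. Orange points make up 5 of the 7 genes called lower, and Fzr1 is the highest orange point.

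The largest median difference of the 9 comparisons was between rES passage 30 and ESC, both grown with LIF. In rES passage 30, 39 of the 40 genes were higher than in ESC, where 35.3% of all tested genes were, and the median log2 difference was 0.77 against -0.01 over all tested genes. By edgeR 0 were lower, where 35.8% of all tested genes were; 0 were lower at an unadjusted p under 0.05, and 0 by DESeq2. At least 1.5-fold higher were 28 genes (19.1% of all tested genes), and at least 2-fold higher 12 (10.7%). Kif23 stood at 72.1 and 72.4 CPM in ESC and 329 and 341 in rES passage 30, 4.64-fold higher (2.21 ± 0.042, adjusted p = 1.06e-34). Kif4 stood at 54.7 and 59.5 against 199.7 and 207 CPM (1.83 ± 0.047, adjusted p = 3.65e-30). Cdc25b, the phosphatase that first activates Cdk1, stood at 28.9 and 25.3 against 84.8 and 86.2 CPM (1.65 ± 0.062, adjusted p = 7.04e-25). In all 3 the groups lay far apart beside the spread of their duplicates.

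The other genes at least 2-fold above ESC were Anln (1.48), Mki67 (1.37), Prc1 (1.30), Ttk (1.25), Ccnb2 (1.24), Top2a (1.19), Cenpf (1.12), Bub1 (1.07) and Cdk1 (1.01). Prc1 is the microtubule bundler of the central spindle that Kif4 binds. Birc5 was the gene not called, at 119 and 112 CPM in ESC and 119 and 116 in rES passage 30 (0.02 ± 0.044, adjusted p = 0.645), and its groups overlapped. The smallest called differences were those of Bub3 (0.17 ± 0.040), Nuf2 (0.19 ± 0.065) and Fzr1 (0.20 ± 0.044). The count of higher genes was 38 or 39 under every alternative run. The feeder markers were lower in rES passage 30 than in ESC in 19 of 20 genes, with a median of -1.47, and the 566 X-linked genes had a median of 0.54, beside which Kif4 stands; the part of either was not tested.

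Among the rES groups the mitotic genes moved little, with log2 differences between -0.24 (Cenpf) and 0.30 (Cdk1) in both comparisons made. From passage 6 to passage 30, 11 were higher (11.3% of all tested genes were) and 4 lower (14.4%), with a median of 0.06 against -0.01. Mad2l1 went from 118 and 119 CPM at passage 6 to 135 and 141 at passage 30 (0.22 ± 0.044), and Pttg1, the separase inhibitor securin, from 110.3 and 109.8 to 125 and 131 (0.22 ± 0.046). The 4 lower genes were Cenpf, Ube2c, Cdc25c and Cenpe. Cenpf went from 379 and 383 to 318 and 327 CPM (-0.24 ± 0.055) and Ube2c from 295 and 297 to 257 and 251 (-0.22 ± 0.038). Cdc25c went from 33.1 and 31.7 to 29.1 and 26.7 CPM (-0.21 ± 0.074) and Cenpe from 164 and 170.1 to 147 and 157 (-0.14 ± 0.050). In none of these 6 did the groups overlap, as in 30 of the 40 genes, some of them not called. These counts moved with the settings, to 17 higher and 2 lower with RLE size factors and to 18 and 2 with DESeq2, and to 2 lower without rES passage 6 replicate 1, without rES passage 6 replicate 2 or without rES passage 30 replicate 1.

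Passage 30 cells without MM401 showed small differences of both signs from those with it. Without MM401, 9 genes were higher (10.4% of all tested genes were) and 4 lower (9.3%), with a median of 0.04 against 0.00. Cdk1 had the largest difference, from 339 and 341 CPM with MM401 to 417 and 422 without (0.30 ± 0.034, adjusted p = 1.73e-08), and its groups did not overlap. Cdc25c (0.22 ± 0.075), Mad2l1 (0.21 ± 0.043), Ube2c (0.21 ± 0.038), Cdc25b (0.20 ± 0.053) and Ccna2, the S and G2 cyclin (0.19 ± 0.040), were among the others that rose. Cdc25c went from 29.1 and 26.7 CPM with MM401 to 33.1 and 31.8 without. The 4 lower genes were Espl1, the protease separase, Mki67 (-0.20 ± 0.043), Cenpe and Cenpf. Espl1 went from 266 and 245 to 214 and 226 CPM (-0.22 ± 0.040), Cenpe from 147 and 157 to 134 and 136 (-0.17 ± 0.051) and Cenpf from 318 and 327 to 292 and 279.8 (-0.17 ± 0.056). In none of these 5 genes did the groups overlap, as in 24 of the 40, some of them not called. The longest coding transcript of each of the 4 lower genes is over 6000 bases, as is that of Mad2l1. Over 1957 tested genes of that length the median was -0.14, against 0.02 for shorter ones. The part of length was not tested, and these gene counts do not show which transcripts were expressed. RLE size factors gave 7 higher and 5 lower. Leaving out replicate 2 of the group without MM401 took the called genes from 13 (19.7% of all tested genes were called) to 8, of which 2 were lower, and leaving out its replicate 1 or replicate 2 of rES passage 30 also left 2 lower.

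Other genes of the same machinery, in lists apart from the 40, are given by their counts. In MM401 P2 against day 3, where 33.3% of all tested genes were lower and 37.5% higher, 26 of 28 further spindle, centrosome and cytokinesis genes were lower and 0 higher (median log2 difference -0.34). So were 19 of 20 condensin and cohesin genes with 0 higher (-0.41) and 26 of 31 further kinetochore and centromere genes with 1 higher (-0.38). DNA replication genes, which act in S phase and not in mitosis, were lower in 25 of 25 with a median of -0.59, led by Mcm7 (-0.95) and Pola1 (-0.89). Among mitotic entry regulators 11 of 13 were lower and 2 higher, and among regulators of G2 and M transcription 15 of 20 were lower and 2 higher. The subunits and regulators of the APC/C had 10 of 15 lower, 2 higher and a median of -0.17, the smallest of these lists.

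In rES passage 30 against ESC, where 35.3% of all tested genes were higher and 35.8% lower, the further spindle genes were higher in 26 of 28 and lower in 0 (median 0.60), led by Hmmr (1.41) and Nusap1 (1.34). Condensin and cohesin genes were higher in 18 of 20 and lower in 2 (0.64), and kinetochore genes higher in 22 of 31 and lower in 4 (0.53). DNA replication genes were higher in 18 of 25 and lower in 2, with a smaller median of 0.32. Mitotic entry regulators were higher in 8 of 13 and lower in 4 (0.18), and transcription regulators higher in 11 of 20 and lower in 4 (0.26). Of the 15 APC/C genes 5 were higher and 7 lower, and their median was -0.02, near that of all tested genes. Against EpiSC, where 38% of all tested genes were higher and 38.3% lower in rES passage 30, the APC/C list had 2 higher and 6 lower. There the spindle genes were higher in 19 of 28 and lower in 6 (0.39), led by Cep55 (1.83), and condensin and cohesin genes higher in 16 of 20 and lower in 2 (0.35).

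Mybl2 (B-Myb), the MuvB partner that activates G2 genes, was higher than in EpiSC by 2.20 in ESC, 2.41 at day 3, 1.83 at P2, 2.57 in rES passage 6 and 2.68 in rES passage 30 on the log2 scale, 5 comparisons that share the EpiSC libraries. The second largest called differences of the G2 and M transcription list went both ways. They were lower for E2f7 in ESC (-1.13) and rES passage 6 (-1.30). They were higher for E2f2 at day 3 (1.22) and in rES passage 30 (1.18), and for Rbl2 at P2 (1.68). That list had 9 genes higher and 9 lower in ESC than in EpiSC. In ESC against EpiSC, where 37.5% of all tested genes were lower and 37% higher, the spindle genes were lower in 20 of 28 and higher in 7 (-0.35), and the APC/C list lower in 10 of 15 and higher in 3 (-0.24). Condensin and cohesin genes were lower in 12 of 20 and higher in 4 (-0.26), and DNA replication genes lower in 14 of 25 and higher in 7 (-0.16). The kinetochore list had 14 of 31 lower, not far from the share of all tested genes, and 7 higher (-0.13). At day 3 against EpiSC, where 38.7% of all tested genes were higher and 37.9% lower, the DNA replication genes were higher in 19 of 25 and lower in 5 (0.43), and the kinetochore genes higher in 19 of 31 and lower in 7 (0.34). The spindle genes were higher in 16 of 28 and lower in 10 (0.19), and the condensin and cohesin genes higher in 13 of 20 and lower in 6 (0.17).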

How the data were processed

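Values are unnormalised read counts by gene symbol, as the authors deposited them. DESeq, Subread, TopHat2 and build mm9 appear in the submitters' processing notes without versions. Neither the strand setting nor the handling of reads that map more than once is given there, so counts of genes with near-identical copies are less certain. 2 columns that match no labelled sample were not used, and 27 row names had been turned into dates (at most 0.254% of a library's counts). Depth was 20831588 to 116086115 counts a library, and the second MM401 P2 library has a title reading P2b.

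Counts were filtered with filterByExpr, scaled by TMM and tested in R 4.3.3 with edgeR 4.0.16 (glmQLFit, robust, and glmQLFTest, two-sided) over all 14 libraries with 1 mean a group; p-values were adjusted over the 16247 genes tested within each comparison and called under 0.05. Differences are log2 with a standard error. The scripts were tested on simulated counts. The alternatives were RLE size factors, scaling to total counts, no filter, DESeq2 1.42.0, a replicate block, thinning to the shallowest library, a fit of the 4 libraries compared, each library left out, and, added after the depths were seen, a fit without the MM401 day 3 and P2 libraries.

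The genes and lists were chosen with earlier results of these data known. Values by library are given for a fixed panel of 9 genes and, in each comparison, for the 3 called genes with the largest difference and those called against the majority; of other lists, up to 2 genes with the largest called difference. Promoters (RefSeq, GRCm38.p6) were matched by symbol, and lengths are of the longest coding transcript in GENCODE M21.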

Additional observations from a re-analysis of the deposited data

Results flagged for a closer look

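Effects at MM401 day 3 and at MM401 P2, both measured against the same EpiSC libraries, had called and opposite signs in 12 of the 40 genes: higher than EpiSC at day 3 and lower at P2, with the difference between P2 and day 3 called as well. Of all 16247 tested genes, 3.56% met the same conditions; the reverse pattern, lower at day 3 and higher at P2, was met by 0 of the 40 and by 5.51% of all tested genes. The P2 minus day 3 log2 difference by edgeR was -0.57 for Ccnb1, -0.54 for Ccnb2 and -0.59 for Cdk1, the cyclin B and kinase pair of mitotic entry. It was -0.56 for Plk1, -0.52 for Aurka and -0.71 for Nek2 among the kinases, and -0.57 for Incenp and -0.59 for Cdca8 among the passenger subunits. It was -0.47 for Bub1, -0.46 for Nuf2, -0.34 for Kif20a and -0.42 for Cdc20. The day 3 side of Bub1, Kif20a and Cdc20 turned below 0 with scaling to total counts.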

How the results depend on the processing

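The counts that moved least over the alternatives were those of ESC against EpiSC (34 to 37 lower), MM401 P2 against day 3 (38 or 39 lower) and rES passage 30 against ESC (38 or 39 higher). EpiSC had the largest TMM factors, and scaling to total counts moved the median of all tested genes against EpiSC to -0.15 (ESC), -0.17 (MM401 day 3), -0.07 (MM401 P2), -0.09 (rES passage 6) and -0.17 (rES passage 30); with it 1 gene was higher in ESC, 11 were lower at day 3, 4 were higher at P2 and 11 were lower in rES passage 6. Signs that turned with it were, at day 3, Ccna2 (-0.16), Bub1 (-0.069), Kif20a (-0.016) and Cdc20 (-0.039); at P2, Bub1b (-0.10), Ttk (-0.012), Tpx2 (-0.054), Kif23 (-0.048), Prc1 (-0.049), Anln (-0.029) and Pttg1 (-0.026); in rES passage 6, Bub3 (-0.092), Cenpa (-0.00498) and Cdc20 (-0.10); and in rES passage 30, Bub3 (-0.10), Cdc20 (-0.070) and Pttg1 (-0.00838). Genes higher at P2 than in EpiSC numbered 5 with RLE size factors, with DESeq2 and in the fit of the 4 libraries. Without the deeper MM401 day 3 and P2 libraries, a choice made after seeing the data, 35 genes were lower in ESC than in EpiSC, 30 higher in rES passage 30 than in EpiSC and 39 higher than in ESC. In rES passage 30 against passage 6, RLE size factors gave 17 higher and 2 lower, and DESeq2 18 and 2.

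Leaving out 1 library at a time, the genes higher in ESC than in EpiSC ranged from 1 to 3, those higher at P2 than in EpiSC from 6 to 9, and those lower in rES passage 30 than in EpiSC from 4 to 7. In rES passage 30 against passage 6 the lower genes ranged from 2 to 3 and all genes called from 2711 to 3619. Without against with MM401 the genes called ranged from 8 to 12, the lower ones from 2 to 4 and all genes called from 1991 to 2751; the cause was not tested. With the replicate number as a block, 35 genes were lower in ESC, 29 higher at day 3, 38 lower at P2 than at day 3 and 39 higher in rES passage 30 than in ESC. Same-numbered libraries had correlations of their deviations from -0.02 to 0.04. With a single difference between duplicates in each group, these values cannot decide whether the numbers mark shared cultures. The labels do not say, and no pairing was assumed. With 2 libraries a group, small differences rest on a spread shared over groups. Thinned to the depth of the shallowest library, the genes higher than EpiSC went from 11 to 8 at P2 and from 29 to 27 at day 3.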
